A study of Mus musculus with 6 samples.

Results

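The 9 complement genes C1qa, C1qb, C1qc, C3, C4b, Cfb, C3ar1, C5ar1 and Serping1 were followed in RNA-seq libraries of mouse bone marrow mesenchymal stem cells (BMSCs) undergoing osteogenic differentiation. They were chosen by symbol, 5 as genes that macrophages make (the C1q chains and the anaphylatoxin receptors C3ar1 and C5ar1) and 4 as genes that stromal cells make (C3, C4b, Cfb and Serping1), and each symbol matched 1 of the 54532 genes in the deposited tables. The question put by the design is whether low-dose nickel (Ni) alters expression while BMSCs differentiate. Both groups were primary, wild-type BMSCs taken from bone and grown for 7 days in osteogenic medium. The medium held β-glycerophosphate at 10 mM, ascorbic acid at 50 μg/mL and dexamethasone at 100 nM, per the labels, in both groups. The study's methods state a lower dexamethasone concentration, and which applies to these cultures was not settled. The 3 Ni cultures also received 0.1 μM nickel ions, and the 3 control cultures received vehicle. Each group is described as independent biological replicates, the animals behind each culture are not given in the sources used here, and BMSCs selected by adherence can carry marrow macrophages with them.

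Complement is a cascade of plasma and tissue proteins that tags surfaces for uptake. The classical pathway starts when C1q, a hexamer built from A, B and C chains, binds its target and activates the proteases C1r and C1s, which cleave C4 and C2, while the alternative pathway amplifies C3 cleavage through factor B, factor D and properdin. The fragments C3a and C5a act on the receptors C3AR1 and C5AR1, and C1 inhibitor, encoded by Serping1, blocks C1r and C1s. Tissue macrophages are a main source of C1q, whereas C3, factor B and C1 inhibitor are also made by stromal cells and are known to be induced by inflammatory cytokines.

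The 3 C1q chain genes lie next to each other on the minus strand of chromosome 4 (GRCm38), within 18.7 kb. C1qb (ENSMUSG00000036905) is at chr4:136880129-136886187, C1qc (ENSMUSG00000036896) at chr4:136889804-136893065 and C1qa (ENSMUSG00000036887) at chr4:136895917-136898803, with gaps of 3.62 kb and 2.85 kb between them. C3 (ENSMUSG00000024164), C4b (ENSMUSG00000073418) and Cfb (ENSMUSG00000090231) are on the minus strand of chromosome 17, at chr17:57203970-57228136, chr17:34728380-34743882 and chr17:34856374-34862518. C3ar1 (ENSMUSG00000040552) is at chr6:122847138-122856161, C5ar1 (ENSMUSG00000049130) at chr7:16246743-16259540 and Serping1 (ENSMUSG00000023224) at chr2:84765387-84775444, all 3 on the minus strand. For 7 of the 9 genes no exon overlapped another gene and no stretch of 50 transcript bases occurred in another gene of GENCODE M21. The exceptions were C4b, which shared 34.6% of its stretches with its near copy C4a, and Cfb, which had 79.5% of its exon bases under the readthrough model Gm20547.

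The promoters of C1qb and C3 are shown because these genes stand for the patterns described below, C1qb for the abundant C1q chains and C3 for the gene with the smallest p among the 9. Each sequence is the 150 bases before the annotated start in RefSeq (GRCm38.p6), given 5′ to 3′ on the minus strand, chr4:136886201-136886350 for C1qb and chr17:57228137-57228286 for C3. Capitals mark the match to an ETS core (GAGGAA) in C1qb and to a C/EBP site (TTGCNNAA) in C3.
C1qb: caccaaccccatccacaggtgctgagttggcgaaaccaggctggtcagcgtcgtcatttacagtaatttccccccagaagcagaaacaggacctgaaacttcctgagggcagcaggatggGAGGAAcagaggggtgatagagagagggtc
C3: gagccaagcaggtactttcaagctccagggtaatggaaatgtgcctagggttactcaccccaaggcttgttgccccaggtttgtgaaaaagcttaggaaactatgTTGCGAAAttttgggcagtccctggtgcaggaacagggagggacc
The RefSeq promoter table held 5 of the 9 genes (C1qb, C1qc, C3, C3ar1 and C5ar1), and the 250 bases before each start were searched on both strands. The ETS core, bound by factors such as PU.1, occurred 30 bases before the start of C1qb and 193 bases before that of C1qc, and in 23.3% of all 32851 promoters. The C/EBP site occurred 45 bases before the start of C3 and in 9.56% of promoters. An NF-kappaB site occurred 41 bases before the RefSeq start of C1qc, where GENCODE M21 places the first exon of C1qc, and in 7.25% of promoters. No motif searched matched C3ar1 or C5ar1. The STAT-type GAS element TTCNNNGAA and the core of the interferon-stimulated response element (ISRE), found in 7.02% and 2.98% of promoters, matched none of the 5. These matches describe letters in a window, and binding was not measured.

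The libraries held between 16101033 and 18642504 counts, and 14624 genes were tested. Control replicate 3 stood apart from the other controls: the chi-square per degree of freedom over genes was 44.3 and 47.8 against control replicates 1 and 2, and 8.65 between those 2. Ni replicate 2 stood apart from its group to a lesser degree, at 20.2 and 23.7 against Ni replicates 1 and 3, which were at 4.56 from each other. All 24 stromal markers and all 15 osteoblast markers passed the filter on low counts, which a gene can pass at a low level. So did all 30 macrophage markers. Their summed level was 30958 to 34890 CPM (counts scaled to library size) in the controls and 29328 to 30868 CPM in the Ni libraries. Summed stromal markers were 19556 to 30820 CPM in the controls and 36100 to 43357 CPM in the Ni libraries, with control replicate 3 the highest control. In such bulk libraries a smaller number of cells of a type and less RNA per cell cannot be told apart, and which cell made a transcript was not measured.

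Per unit length, C1q was among the most abundant products of these cultures. The deposited FPKM (reads scaled to gene length and library size) averaged 2083 ± 205 for C1qb and 2062 ± 244 for C1qa (SD over the 6 libraries), and each level was above that of 99.9% of the genes tested. These 2 did not differ beyond their spread, C1qb being the higher in 4 of 6 libraries. C1qc followed at 969 ± 148 FPKM, below C1qa in 6 of 6 libraries, and Serping1 at 322 ± 9.37 FPKM, below C1qc in 6 of 6. The receptors C5ar1, at 77.6 ± 5.68 FPKM, and C3ar1, at 74.8 ± 6.73 FPKM, overlapped in their ranges, as did C3, at 39.9 ± 12.7 FPKM, and C4b, at 35.8 ± 9.61 FPKM. Cfb was far below all others at 0.386 ± 0.191 FPKM, a level above only 8.06% of the genes tested. The 9 genes together took 0.690% to 0.904% of all counts, and the C1q chains alone 0.533% to 0.729%.

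**Figure D1:**
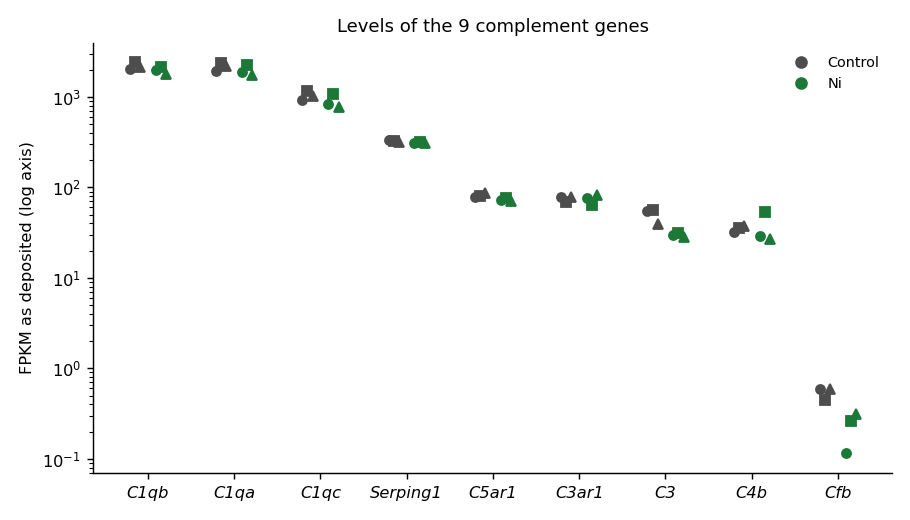
Deposited FPKM (log axis) of the 9 complement genes in each library, ordered by mean level, with control libraries in grey and Ni libraries in green (circle, square and triangle for replicates 1, 2 and 3). The levels run from C1qb, with a mean of 2083 FPKM, to Cfb, with a mean of 0.386 FPKM, and C1qb and C1qa overlap.

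Between Ni and control libraries 0 of the 14624 genes, or 0.0%, and hence 0 of the 9 complement genes, passed an adjusted p of 0.05 (quasi-likelihood test of edgeR, Benjamini-Hochberg adjustment). Without adjustment the test put 1963 genes at p under 0.05. DESeq2's Wald test, run without that filter, gave 25876 genes a p-value. Of these 264, or 1.02%, passed an adjusted p of 0.05, and C3 was 1 of them. At an unadjusted p under 0.05, 2 of the 9 were lower (C3 and Cfb), where 5.83% of all genes tested were lower, and 0 of the 9 were higher, where 7.59% were. The 3 Ni libraries lay entirely below the 3 controls for C3, Cfb and C5ar1, 3 of the 9, and for 6.71% of all genes tested. The log2 fold change was negative for 8 of the 9, with a median of -0.16 over the 9 against -0.01 over all genes tested. The median was also -0.16 over the C1q chains and both receptors, and -0.41 over C3, C4b, Cfb and Serping1. The latter median describes none of these genes. C3 and Cfb were at -0.76 and -1.24, Cfb with few counts, whereas C4b and Serping1 were at 0.05 and -0.06. Leaving out control replicate 3 gave 2283 genes, or 15.2%, past this adjusted threshold, C3 being the 1 of the 9 among them. Leaving out Ni replicate 2 put 4 of the 9 at an unadjusted p under 0.05 (C3, Cfb, C4b and C1qc), where 16.3% of all genes were. For a single gene, no exact permutation test (two-sided) over 3 and 3 libraries can go below p = 0.1.

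None of the C1q chains separated the groups. C1qa was at 2028, 2479 and 2291 CPM in the 3 controls and at 1962, 2376 and 1820 CPM in the 3 Ni libraries (TMM-normalized and in replicate order, as all CPM below). C1qb was at 2232, 2650 and 2333 CPM in the controls and at 2161, 2352 and 1964 CPM with Ni. C1qc was at 1820, 2263 and 1984 CPM in the controls and at 1610, 2120 and 1514 CPM with Ni. In each group replicate 2 had the highest value of all 3 chains, and the groups overlapped for each chain. The fold of Ni over control was 0.906 for C1qa, with a 95% interval of 0.726 to 1.13, 0.898 for C1qb, from 0.734 to 1.10, and 0.864 for C1qc, from 0.679 to 1.10. Respective adjusted p-values from edgeR were 0.700, 0.635 and 0.589. The log2 fold changes, -0.14, -0.16 and -0.21 with all libraries, depended on the library left out. They were -0.26, -0.22 and -0.37 without Ni replicate 2, where C1qc was at an unadjusted p of 0.0331 and an adjusted p of 0.279 (edgeR). They were -0.06, -0.09 and -0.12 without Ni replicate 3, and -0.07, -0.08 and -0.12 without control replicate 2.

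The proportions of the 3 chains varied between libraries, that of C1qc to C1qb more in the Ni group than in the controls. The ratio of C1qa to C1qb FPKM was 0.986 ± 0.0389 in the controls and 0.992 ± 0.0570 with Ni (SD, n = 3), and that of C1qc to C1qb was 0.473 ± 0.0121 and 0.454 ± 0.0473. Neither ratio separated the groups. The proteases that C1q activates were much lower: C1qb FPKM was 113 to 138 times that of C1ra, the more abundant of both C1r genes, and 100.1 to 135 times that of C1s1. Reads of C1ra and C1s1 may be shared with their near copies, since 50.8% and 35.1% of their stretches occur in other genes.

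C4b, a substrate of C1s, was spread widely within the Ni group. It was at 186, 206 and 214 CPM in the 3 controls and at 166, 309 and 152 CPM in the 3 Ni libraries. Ni replicate 2 was the highest library and the other 2 Ni libraries were the lowest, so the groups overlapped. The log2 fold change was 0.05 (SE 0.25, adjusted p = 0.957, edgeR). It was -0.34 without Ni replicate 2 (adjusted p = 0.235), so 1 library decided its direction. C4a, with 40 to 77 counts, was low throughout, against 2756 to 5363 counts for C4b.

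C3, the component on which all pathways converge, was lower with Ni in these libraries. It was at 285, 291 and 204 CPM in the 3 controls, a mean of 259.9 ± 48.8 (SD, n = 3). It was at 153, 163 and 146 CPM in the 3 Ni libraries, a mean of 153.8 ± 8.66 (SD, n = 3). Every Ni library was below every control, and control replicate 3 was the control nearest to them. The log2 fold change was -0.76 (SE 0.14), or 0.592 of control with a 95% interval of 0.477 to 0.734, at an unadjusted p of 0.00028 and an adjusted p of 0.208 (edgeR). The exact permutation test over the 6 libraries gave p = 0.1, the smallest it can give. Without control replicate 3 the log2 fold change was -0.90 (adjusted p = 7.95e-05, edgeR), where 15.2% of all genes tested passed an adjusted p of 0.05. Over all alternatives the adjusted p of C3 ranged from 1.65e-07 to 0.749.

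Cfb, which encodes the protease of the alternative C3 convertase, had few counts. Its counts were 31, 20 and 28 without Ni, and 6, 13 and 16 with Ni. This was 1.69, 1.26 and 1.68 CPM against 0.33, 0.75 and 0.88 CPM, and every Ni library was below every control. The log2 fold change was -1.24 (SE 0.43, adjusted p = 0.315, edgeR), or 0.423 of control with a 95% interval of 0.217 to 0.826. With 1 library left out it ranged from -0.91, without Ni replicate 1, to -1.52, without Ni replicate 3, and its unadjusted p was above 0.05 without control replicate 1 or Ni replicate 1 (edgeR). Gm20547, whose model covers most of the Cfb exons on the same strand, was listed at 0 counts in every library, so the Cfb count is uncertain where reads could fit both models.

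**Figure D2:**
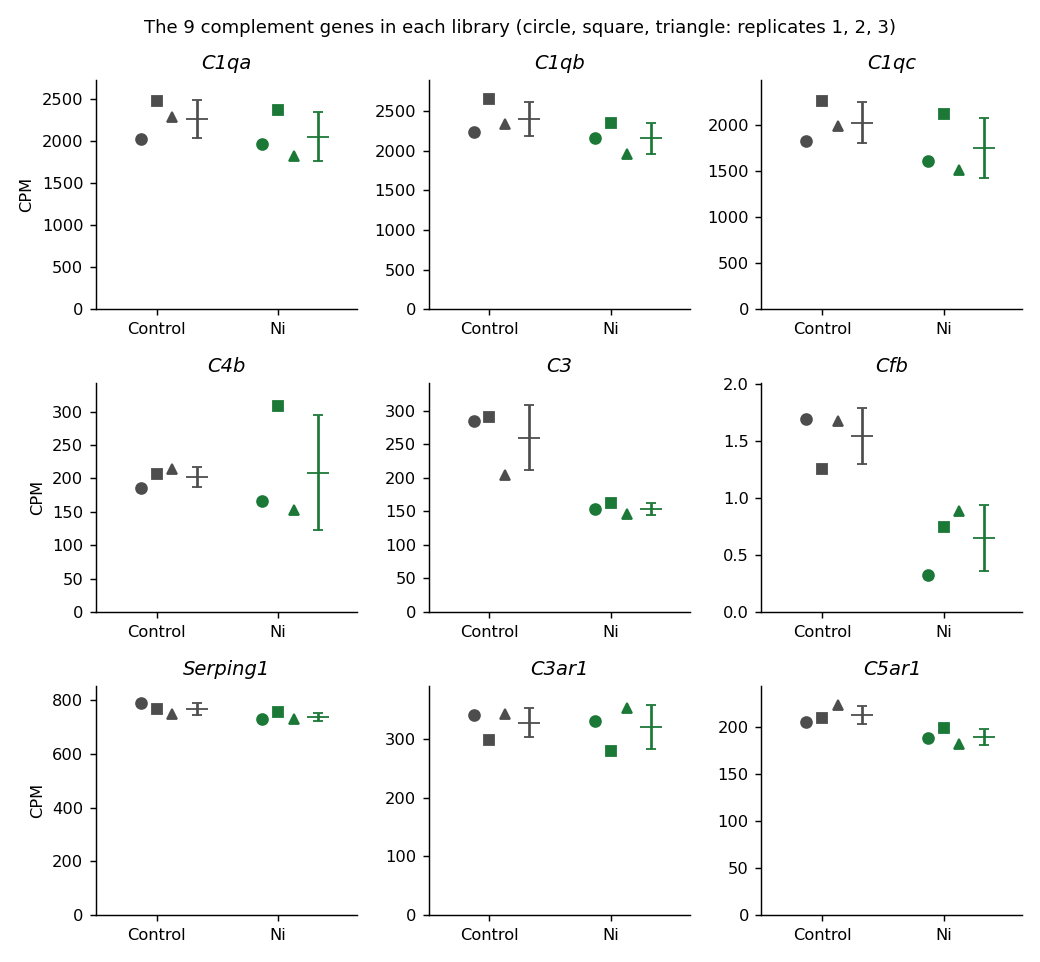
CPM (TMM-normalized) of the 9 complement genes in the 3 control (grey) and 3 Ni (green) libraries, each axis starting at 0, with the mean and SD of each group beside the points. The Ni libraries lie below all controls for C3, Cfb and C5ar1, and the groups overlap for the other 6.

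Neither anaphylatoxin receptor passed the test. C3ar1 was at 341, 299 and 343 CPM in the 3 controls and at 330, 279 and 352 CPM in the 3 Ni libraries. The highest and the lowest of the 6 values were both Ni libraries, and the fold of Ni over control was 0.979, with a 95% interval of 0.816 to 1.17 (adjusted p = 0.936, edgeR). C5ar1 was at 205, 210 and 224 CPM in the controls and at 188, 198 and 182 CPM with Ni. Here every Ni library was below every control by a small margin, and the fold was 0.890, with a 95% interval of 0.771 to 1.03 (adjusted p = 0.453, edgeR). The log2 fold change was -0.17 with all libraries and -0.12 without control replicate 3.

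Serping1, the inhibitor, was the steadiest of the 9 genes. It was at 789, 767 and 747 CPM in the 3 controls and at 729, 755 and 731 CPM in the 3 Ni libraries, with overlapping groups. The fold of Ni over control was 0.962, with a 95% interval of 0.823 to 1.12 (adjusted p = 0.846, edgeR). The ratio of inhibitor to C3 did not overlap between the groups. Serping1 FPKM was 6.13, 5.83 and 8.12 times C3 FPKM in the 3 controls and 10.5, 10.3 and 11.1 times C3 FPKM in the 3 Ni libraries. The ratio of C1qb to C3 FPKM was 37.1, 43.0 and 54.1 in the controls and 66.7, 68.3 and 63.8 with Ni, likewise without overlap. Both ratios divide by C3, which separated the groups by itself, so they are no result apart from that of C3.

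The other 44 complement genes were taken from lists of pathway components. Of these, 27 were tested, and at an unadjusted p under 0.05 3 had higher and 8 lower values with Ni, where 7.59% and 5.83% of all genes tested did, with a median log2 fold change of -0.01. None passed an adjusted p of 0.05, the smallest being 0.293 (edgeR), while DESeq2 called Cd55 and Vsig4 at an adjusted p under 0.05. Without control replicate 3, 15 of them were at an unadjusted p under 0.05, where 27.4% of all genes were, and 10 at an adjusted p under 0.05, where 15.2% were. Mbl2, Fcnb, Hc, C8a and C8b were listed at 0 in every library, so C5 itself, the precursor of the C5AR1 ligand and encoded by Hc, had no counts.

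In the classical and lectin pathways, 1 of 10 tested genes was higher and 3 were lower at an unadjusted p under 0.05. Over all genes tested, 7.59% were higher and 5.83% were lower. C1ra was at 18.1 ± 0.209 FPKM in the controls and 15.6 ± 0.0692 FPKM with Ni (SD, n = 3). Its log2 fold change was -0.21 (SE 0.09, adjusted p = 0.351, edgeR). The low-level copies C1rb, with a log2 fold change of -0.84 (SE 0.30), and C1s2, with -0.98 (SE 0.29), were lower in every Ni library, whereas C1s1 was at -0.19 (SE 0.10) and did not reach an unadjusted p of 0.05. C2, the partner of C4b in the classical convertase, was at 9.34, 9.32 and 9.30 CPM in the controls and at 13.1, 11.1 and 13.8 CPM with Ni. Every Ni library was above every control for C2, at a log2 fold change of 0.44 (SE 0.15, adjusted p = 0.308, edgeR), although 46.9% of its exon bases lie under other gene models. The lectin pathway protease Masp1, the collectin Colec12 and the ficolin Fcna had log2 fold changes of 0.39, 0.28 and 0.09, with overlapping groups.

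Cfp, encoding properdin, the stabiliser of the C3 convertase, was the other alternative pathway gene tested and was abundant. It was at 856, 942 and 685 CPM in the 3 controls and at 668, 661 and 586 CPM in the 3 Ni libraries. The groups did not overlap, but control replicate 3 lay close to Ni replicate 1, and the log2 fold change was -0.37 (SE 0.14, adjusted p = 0.332, edgeR). All 3 tested genes of this list (C3, Cfb and Cfp) were lower at an unadjusted p under 0.05, where 5.83% of all genes were. Of these 3, C3 and Cfb are among the 9 and were already counted above, so only Cfp adds to them. Cfd, encoding factor D, had 3 to 35 counts and was not tested.

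Of the terminal genes, C6 and C8g were tested and overlapped between groups, with log2 fold changes of 0.18 and 0.16. C8g was at 1.60 FPKM in the controls and 1.79 FPKM with Ni.

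Among the regulators other than Serping1, 1 of 8 tested genes was higher and 2 were lower at an unadjusted p under 0.05, where 7.59% and 5.83% of all genes tested were. Cd55, the membrane decay-accelerating factor, was at 379, 342 and 208 CPM in the controls and 187, 204 and 194 CPM with Ni, with a log2 fold change of -0.67 (SE 0.20, adjusted p = 0.293, edgeR). The groups did not overlap for Cd55, but control replicate 3 was only just above the highest Ni library. Clu, encoding clusterin, was at -0.48 (SE 0.18), and the membrane regulators Cr1l and Cd59a were at -0.09 and -0.01.

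Among the receptors other than C3ar1 and C5ar1, 1 of 6 tested genes was higher and 2 were lower at an unadjusted p under 0.05. Over all genes tested, 7.59% were higher and 5.83% were lower. Vsig4, the complement receptor of tissue macrophages, was at 19.8, 16.3 and 34.9 CPM in the controls and 44.9, 35.7 and 46.1 CPM with Ni, with a log2 fold change of 0.83 (SE 0.26, adjusted p = 0.309, edgeR). Itgam and Itgb2, the chains of complement receptor 3, had log2 fold changes of -0.40 (SE 0.13) and -0.55 (SE 0.20). Every Ni library was below every control for Itgam, whereas control replicate 3, at 738 CPM, lay within the Ni range of 704 to 798 CPM for Itgb2. Cd93, once taken for a C1q receptor, was at -0.03 (SE 0.11).

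**Figure D3:**
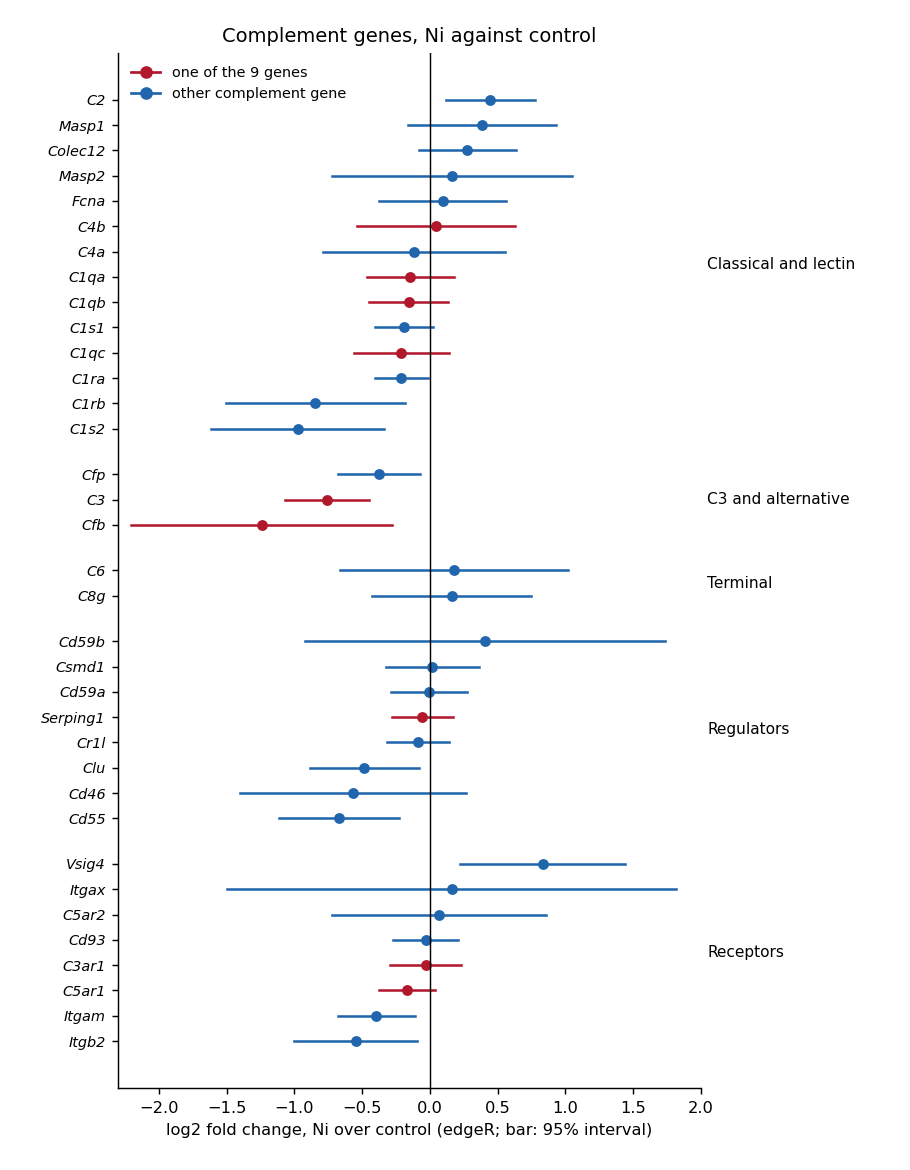
Log2 fold change of Ni over control with its 95% interval (edgeR) for the tested complement genes reported here, grouped by role, with the 9 genes in red and the other complement genes in blue. C3, at -0.76, and Cfb, at -1.24, are the 2 of the 9 whose interval lies below 0, and the C1q chains, C4b, C3ar1, C5ar1 and Serping1 have intervals that include 0.

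The C1q chains were set against macrophage markers in the same library, since those markers also differed between the groups. The mean log2 CPM of the 30 markers was 8.77, 8.84 and 8.71 in the 3 controls and 8.60, 8.62 and 8.56 in the 3 Ni libraries, lower in every Ni library. At an unadjusted p under 0.05, 1 of the 30 was higher and 10 were lower, where 7.59% and 5.83% of all genes tested were, with a median log2 fold change of -0.15. With 1 library left out, from 2, without control replicate 2, to 14, without control replicate 3, were lower. The most abundant, Lyz2, Ctss and Adgre1, were at 0.02, -0.07 and -0.35, and none passed the test. The mean log2 CPM of the C1q chains exceeded that of the markers by 2.21, 2.42 and 2.40 in the controls and by 2.29, 2.54 and 2.21 with Ni. This difference was 0.01 larger with Ni, with overlapping groups. The same difference changed by 0.14 for C3ar1 and 0.01 for C5ar1, also with overlap.

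C3 was lower with Ni against either marker list. Relative to the macrophage markers its log2 CPM was -0.62, -0.65 and -1.03 in the 3 controls and -1.34, -1.27 and -1.38 in the 3 Ni libraries. Relative to the 24 stromal markers it was 0.55, 0.55 and -0.48 in the controls and -1.10, -0.79 and -1.12 with Ni. Neither comparison overlapped between groups. C3 separated the groups by itself, so these comparisons are no result apart from that of C3. The stromal list itself had 13 genes higher and 1 gene lower at an unadjusted p under 0.05, with a median log2 fold change of 0.49, and its most abundant genes, Col1a1, Sparc and Col1a2, were at 1.13, 0.82 and 0.97. All 15 osteoblast markers were higher at an unadjusted p under 0.05, with a median of 1.07 and with Spp1, Ibsp and Alpl at 0.63, 1.70 and 1.07. None of these markers passed an adjusted p of 0.05, and the part of cell composition in the C3 difference was not tested.

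Serping1 was set against both lists in the same way. Relative to macrophage markers its log2 CPM was 0.85, 0.74 and 0.84 in the controls and 0.91, 0.94 and 0.95 with Ni, higher in every Ni library. Serping1 by itself overlapped between the groups, whereas the macrophage marker mean was lower in every Ni library, so this is no rise of Serping1. Relative to stromal markers its log2 CPM was 2.02, 1.95 and 1.39 in the controls and 1.15, 1.42 and 1.20 with Ni, with overlap. The latter difference was largest in control replicates 1 and 2, which had the lowest stromal marker levels. For C4b both comparisons overlapped.

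**Figure D4:**
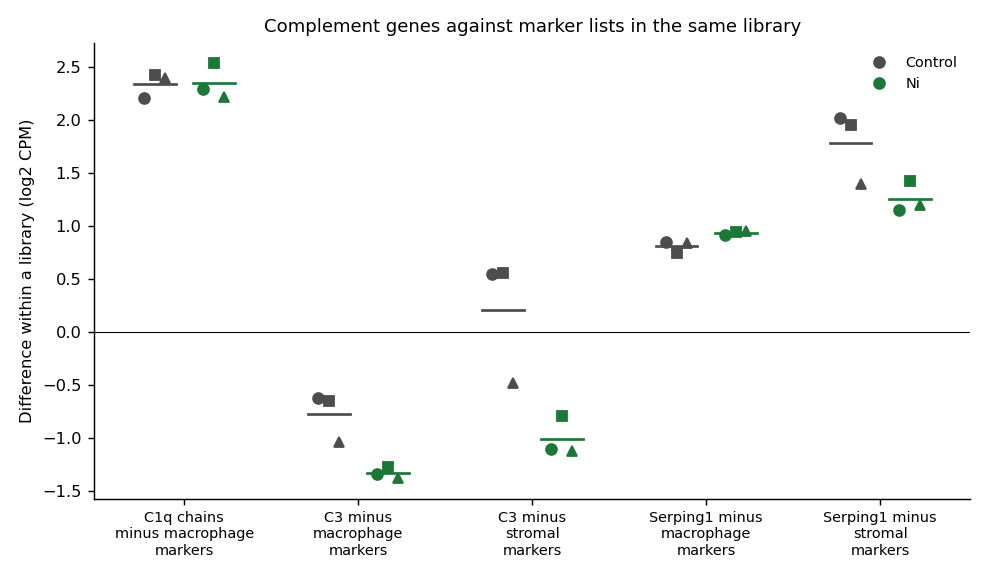
Difference between the log2 CPM of complement genes and the mean log2 CPM of macrophage or stromal markers in the same library (controls grey, Ni green, horizontal lines for group means, and circle, square and triangle for replicates 1, 2 and 3). The C1q chains overlap between groups relative to macrophage markers, and C3 lies lower in all 3 Ni libraries relative to both lists. The CPM of C3 separates the groups by itself.

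Markers of other cells were low or mixed. Of 13 neutrophil markers 5 were tested, with 1 lower at an unadjusted p under 0.05 and summed levels of 58.8 to 97.1 CPM in the controls and 31.5 to 66.0 CPM with Ni. Mmp9, Mmp8 and Camp were its most abundant genes, at -0.83, -0.12 and 0.06, and Ltf, Ngp, S100a9 and Retnlg were listed at 0. Of 8 lymphoid markers only Cd79b was tested, at -0.81, with Nkg7 and Cd79a near 0 and Ms4a1, Cd3d and Cd3e at 0 in every library. Lymphoid markers summed to 13.8 to 42.4 CPM in the controls and 14.9 to 18.9 CPM with Ni. Of 7 endothelial markers, with Pecam1, Cdh5 and Tie1 at -0.65, -0.19 and -0.09, all were tested and 1 was lower at an unadjusted p under 0.05, with summed levels of 53.9 to 77.8 CPM and 48.3 to 50.8 CPM. No erythroid marker of 6 was tested, Klf1 and Alas2 being near 0 and Hba-a1, Hbb-bt and Hbb-bs at 0. Of 7 osteoclast markers 3 were tested, Acp5, Ctsk and Atp6v0d2, at -0.90, 0.62 and 0.24, with 1 lower, and summed levels were 571 to 1263 CPM and 585 to 634 CPM. Of 7 adipocyte markers 6 were tested, with 1 lower, and Cebpa, Lpl and Adipoq were at 0.13, -0.49 and 0.16, with summed levels of 837 to 1167 CPM and 818 to 931 CPM. All these are log2 fold changes of Ni over control, and their part in the complement values was not tested. Over all genes tested, 5.83% were lower at an unadjusted p under 0.05.

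The genes whose log2 CPM followed these genes most closely over the 6 libraries were ranked by Pearson's r among 9471 genes with a mean of at least 10 CPM. For the mean of the C1q chains they were Prdx5, Ric8a, Pdxk, Cirbp and U2af2, with r from 0.986 to 0.995, and 102 genes exceeded 0.95. For C3 they were Ccl3, Ifngr2, Akap10, Eml4 and Iah1, with r from 0.992 to 0.997, and 131 genes exceeded 0.95. With 6 libraries that share depth and composition, such values describe likeness only. Ccl3, encoding a macrophage chemokine, had a log2 fold change of -0.61.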

How the data were processed

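RNA-seq libraries of 3 control and 3 Ni-treated BMSC cultures were used. The deposited counts are whole reads per gene for 54532 genes without normalization, and the deposited FPKM equal those counts divided by gene length and 1 factor per library, to within 2.19e-08 (genes over 20 counts). The submitters' processing notes name GRCm38. The aligner, counter and count model are not given in the sources used here, and the library kit does not mark strand, so reads of overlapping genes on opposite strands cannot be told apart.

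Genes passing edgeR's filterByExpr were TMM-normalized and tested under R 4.3.3 with edgeR 4.0.16 (quasi-likelihood test, robust estimation, a prior count of 0.125). P-values were adjusted by Benjamini-Hochberg over all genes tested. Counts were simulated for 14422 genes, 200 of them changed by 1.5 on the log2 scale. The fit recovered 84.5% of these 200, with 5.06% of its calls false. No smaller change was simulated, so this recovery does not apply to one such as that of C3, at -0.76. Intervals use the t quantile with each gene's degrees of freedom. Marker means are log2 CPM with a prior count of 2. DESeq2 1.42.0, limma 3.58.1 on log2(FPKM + 1) and log2(FPKM + 0.1), other scalings and filters, a replicate block and each library left out served as alternatives. P-values weigh the difference between the groups against the spread between these cultures, and whether that is a spread between animals is not known.

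The 9 genes and the lists were chosen with earlier results of these data known. Named genes are the 9, the other complement genes with a mean of at least 1 FPKM or an unadjusted p under 0.05, the 3 most abundant of each marker list, and the 5 most like the C1q chains or C3. C6, Cfd, C4a, Gm20547 and the genes listed at 0 were named after their values were seen. Of the listed genes, 1 complement gene and 2 marker genes are not reported here, but they remain in the counts of their lists.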

Additional observations from a re-analysis of the deposited data

How the results depend on the processing

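The C1q chains, C5ar1, Serping1 and Cfb kept a negative log2 fold change and an adjusted p above 0.05 under every alternative that gave a value; Cfb was not tested with at least 10 counts in every library. The number of the 9 genes at an adjusted p under 0.05, 0 with edgeR, was 1 (C3) with DESeq2, with no filter on low counts and with a replicate block, and 0 to 1 with 1 library left out, the 1 being without control replicate 3. For C3 the log2 fold change was -0.75 with DESeq2 (adjusted p = 0.000312), -0.74 with no filter (1.65e-07) and -0.74 with the replicate block (0.0170), and from -0.90, without control replicate 3, to -0.67 with 1 library left out. The number at an unadjusted p under 0.05, 2 in the report, was 1 with at least 10 counts in every library and 1 to 4 with 1 library left out, 1 without control replicate 1 or Ni replicate 1 and 4 without Ni replicate 2. With at least 10 counts in every library the median over C3, C4b, Cfb and Serping1, -0.41 in the report, was -0.050, Cfb being absent there. C4b changed sign on log2(FPKM + 1) and log2(FPKM + 0.1), at -0.021 and -0.023, with the replicate block, at -0.026, and with 1 library left out, from -0.34 to 0.23. C3ar1 ranged from -0.10 to 0.062 with 1 library left out. Over alternatives chosen after seeing the data, the other complement genes at an unadjusted p under 0.05, 11 in the report, were 5 to 15 with 1 library left out, lowest without Ni replicate 3 and highest without control replicate 3. Lower macrophage markers, 10 in the report, were 6 on log2(FPKM + 1) and 2 to 14 with 1 library left out, lowest without control replicate 2 and highest without control replicate 3. Over all genes, 264 passed an adjusted p of 0.05 with DESeq2, 1027 with no filter, 315 with the replicate block, 2283 without control replicate 3 and 13 without Ni replicate 2, against 0 in the report; why was not tested. Correlations between same-numbered libraries were 0.01, 0.26 and 0.14. They were not compared with those of other pairings, so whether the replicate numbers pair the libraries was not settled. With 3 libraries a group, an adjusted p above 0.05 leaves folds within the printed intervals possible.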

Other observations

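Genes of the acute phase and NF-kappaB response had lower values in the Ni libraries. Of 14 listed genes 13 were tested, all 13 were negative on the log2 scale (median -0.39), and 7 were lower at an unadjusted p under 0.05, where 5.83% of all genes tested were. None passed an adjusted p of 0.05, but Saa3, a serum amyloid gene made by macrophages and stromal cells, had the smallest adjusted p of all genes tested, 0.185 (edgeR). It was at 599.6, 673 and 447 CPM in control replicates 1 to 3 and at 214, 297 and 209.6 CPM in Ni replicates 1 to 3, without overlap, at a log2 fold change of -1.26 (SE 0.18). The next most abundant of the list, Cebpb and Nfkbia, were at -0.15 and -0.23 with overlapping groups. Of the 14 interferon and JAK-STAT genes, all were tested, 1 was lower and 0 were higher at an unadjusted p under 0.05, and the median was -0.16, with Socs3, Stat3 and Isg15 at -0.23, -0.10 and -0.20.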
